A study of Mus musculus with 2 samples.

Results

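The genes described here are 8 surface molecules through which antigen-presenting cells speak to T cells, namely Cd80, Cd86, Cd40, Cd83, Cd274, Pdcd1lg2, Icosl and Havcr2. They were chosen by symbol, and 8 of 31053 features in the deposited tables matched, 1 for each name. Single-cell RNA sequencing was performed on colon lamina propria cells that the labels give as cd11b+ (carrying the myeloid integrin encoded by Itgam). A wild-type (WT) library and a library from knockout (KO) mice were compared. The KO mice lack the long non-coding RNA lncLy6c, labelled LncRNA17Rik. Per the study, each library pooled male mice aged 8 weeks, and the KO line was made on C57BL/6J by CRISPR-Cas9 with guides on either side of its exons. No feature carries either name of the deleted RNA, so the genotype was not checked from its own transcript.

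T cells need a second signal beside antigen. CD80 and CD86 give it by binding CD28 on the T cell, and CTLA-4 competes for the same ligands as a brake. CD40 is the receptor on the antigen-presenting cell through which CD40 ligand on a T cell licenses it, CD83 marks mature dendritic cells and stabilises surface MHC class II, and ICOS ligand (Icosl) engages ICOS. PD-L1 (Cd274) and PD-L2 (Pdcd1lg2) bind PD-1 and restrain T cells. TIM-3 (Havcr2), an inhibitory receptor on exhausted T cells, is also carried by dendritic cells. In the gut these signals take part in the balance between tolerance and immunity.

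The WT library held 3185 barcodes and 22191774 UMIs (unique molecular identifiers, each a captured molecule), and the KO library 3020 barcodes and 23384895 UMIs. After the study's filters 2597 WT and 2514 KO cells remained, at a median depth of 5073 and 6564 UMIs, and 1 barcode string occurred in both. Itgam was detected in 40.0% of WT cells against 57.8% of KO cells. Clusters like B, plasma, T, epithelial and stromal cells were present, so the cells were not purely CD11b+ by their transcripts. Levels are counts per 1000000 UMIs (CPM), summed over the cells of a group, with exact Poisson 95% intervals. Ratios are log2 of KO over WT CPM with exact binomial intervals. With 1 library per genotype there is no test between genotypes, intervals cover counting error only, and genotype and library cannot be told apart. A gene whose 2 libraries together held 20 UMIs or more was counted as higher or lower when it differed by 2-fold or more.

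Cells were clustered without the 8 genes, and none of them was a naming marker. Named classes are called X-like below. Of the 4 clusters that met no name, the larger pair is described and called by its leading genes. The Plet1 Tbc1d4 cluster (101 WT and 124 KO cells) also carried Itgae, Il1r2 and Ccr7. The Serpinb2 Ccr3 cluster (197 and 407 cells) had 4 neutrophil and 3 eosinophil markers raised and a median depth of only 753 and 970.0 UMIs. A cluster with as many raised resident macrophage as monocyte markers is called intermediate (614 and 38 cells). Resident macrophage-like cells (188 and 283) came mostly from a C1qc cluster in WT (169 of 188) and from a Retnla Ccl24 cluster in KO (161 of 283), and inflammatory monocyte-like cells (113 and 354) mostly from a Chil3 Ace cluster in KO (270). Values within clusters are therefore given beside those of the classes for some of the genes.

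The first pair of genes to consider are the PD-1 ligands, which lie next to each other. Cd274 (ENSMUSG00000016496) spans chr19:29367455-29388095 and Pdcd1lg2 (ENSMUSG00000016498) chr19:29410919-29471161, both on the plus strand (GRCm38, GENCODE M21), 22.8 kb apart. RefSeq promoters were given for 5 of the 8 genes. Those of Cd274, Pdcd1lg2 and Icosl are printed because Cd274 and Pdcd1lg2 are neighbours whose levels are compared below and because Icosl ranked high in stromal cell-like cells. Each is the 250 bases before the RefSeq start on the plus strand of GRCm38.p6, with CG dinucleotides in capitals.
Cd274 promoter, chr19:29367188-29367437: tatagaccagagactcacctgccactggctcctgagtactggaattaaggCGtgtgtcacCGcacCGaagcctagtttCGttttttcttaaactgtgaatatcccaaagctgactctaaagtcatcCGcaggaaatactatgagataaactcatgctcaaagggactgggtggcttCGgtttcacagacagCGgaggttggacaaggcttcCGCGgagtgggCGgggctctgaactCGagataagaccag
Pdcd1lg2 promoter, chr19:29410669-29410918: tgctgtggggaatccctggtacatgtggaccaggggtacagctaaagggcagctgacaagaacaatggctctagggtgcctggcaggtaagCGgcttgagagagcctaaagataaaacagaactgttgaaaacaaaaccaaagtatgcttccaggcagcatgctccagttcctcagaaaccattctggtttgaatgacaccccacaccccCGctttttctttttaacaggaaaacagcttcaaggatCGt
Icosl promoter, chr10:78069118-78069367: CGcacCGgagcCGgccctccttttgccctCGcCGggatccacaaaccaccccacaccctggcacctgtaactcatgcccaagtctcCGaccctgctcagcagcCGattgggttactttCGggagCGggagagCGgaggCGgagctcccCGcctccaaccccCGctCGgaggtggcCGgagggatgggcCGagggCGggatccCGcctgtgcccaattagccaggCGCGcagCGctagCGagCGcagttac
The Icosl window holds 23 CG dinucleotides, a number reached by 13.3% of 32851 promoters, the Cd274 window 11 (35.6%) and the Pdcd1lg2 window 3 (71.0%), against a median of 6. Motifs were searched on both strands, as GGGA, any base, TTTCC for NF-kB, as GAAA, any 2 bases, GAAA for ISRE and as TTCNNNGAA for GAS, which is its own reverse complement. They occur in 0.356%, 2.98% and 7.02% of all promoters and in 0 of the 5 members' windows, which says only that these letters are not in these bases.

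**Figure D1:**
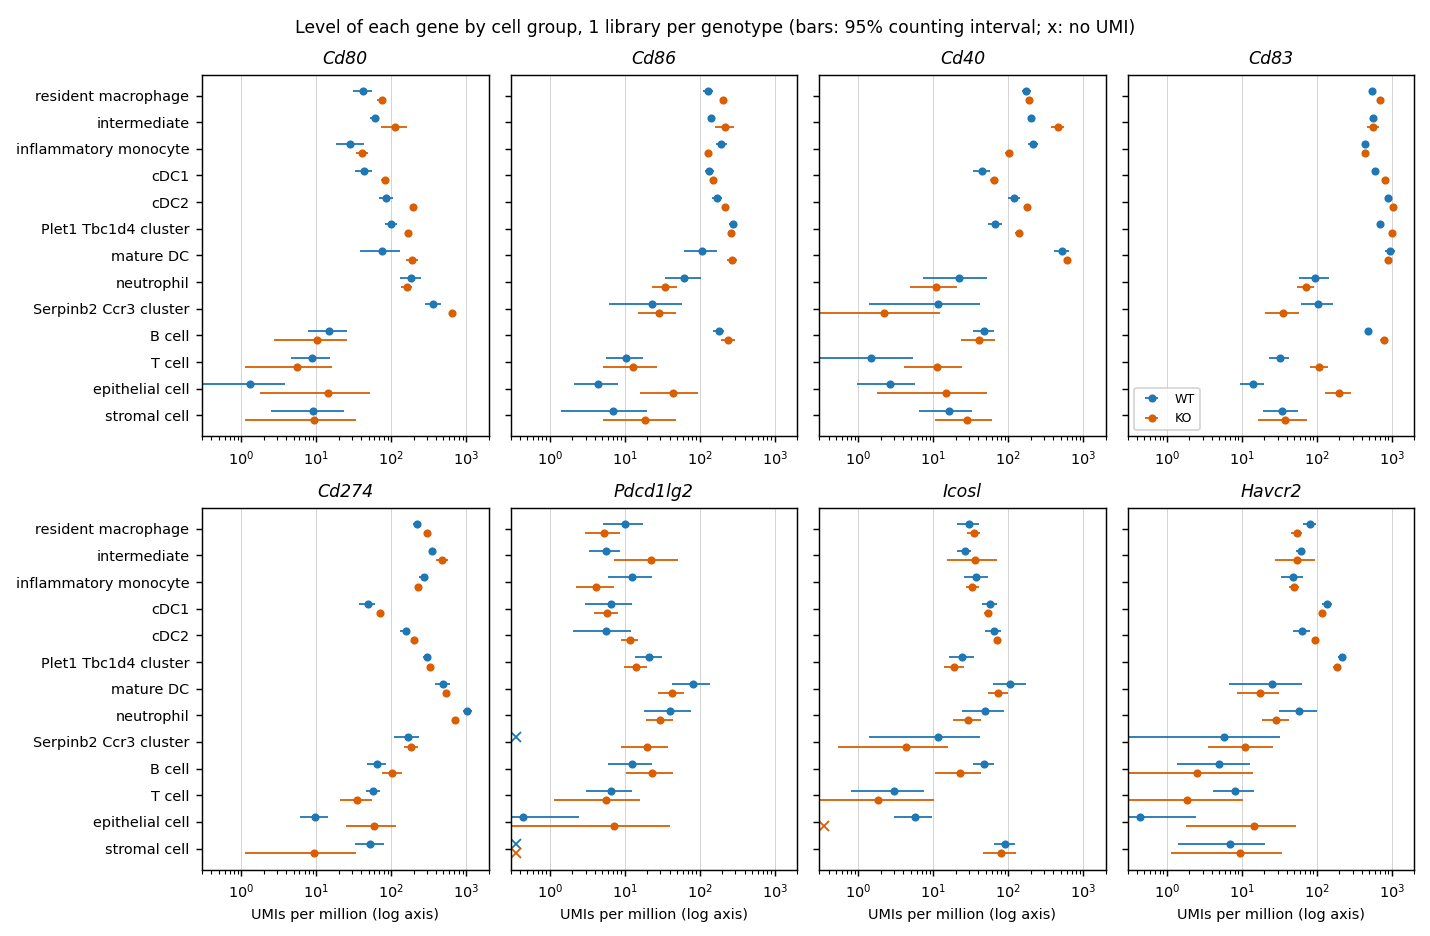
Level of each of the 8 genes in CPM (log axis) by cell group, with the WT library in blue and the KO library in orange; bars are exact 95% counting intervals and a cross marks a group with no UMI. Cd274 is highest in neutrophil-like cells, Cd40 in mature dendritic cell-like cells and Cd80 in the Serpinb2 Ccr3 cluster in both libraries.

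Cd274 was highest in neutrophil-like cells, at 1042 CPM (WT) and 706 CPM (KO). Mature dendritic cell-like cells (19 WT and 41 KO cells, led by Fscn1, Ccl22 and Il4i1) followed at 494 and 545 CPM, then the intermediate cluster at 349 and 478 CPM and the Plet1 Tbc1d4 cluster at 298 and 329 CPM. Among these groups, the WT and KO values of each did not overlap with those of the next. Resident macrophage-like cells (221 and 299 CPM) overlapped with the Plet1 Tbc1d4 cluster above them and with inflammatory monocyte-like cells (272 and 226 CPM). Of neutrophil-like cells, 70.2% in WT and 63.5% in KO had a Cd274 UMI, at a median depth of 2303 and 3009 UMIs. In T cell-like cells it was 21.8% and 20.5% and in epithelial-like cells 13.1% and 18.8%. Both can express Cd274 and are not a background for it. By the mean of both libraries Cd274 was lowest in stromal cell-like cells, at 52.8 and 9.41 CPM, where 12.5% and 9.52% of cells had a UMI. Cells were also thinned to 2000 UMIs, which left out shallower ones. In the 55 WT and 236 KO neutrophil-like cells that remained (29 and 27 were left out), the shares were 70.9% and 55.9%. cDC1-like cells were low, at 48.6 and 72.1 CPM.

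Pdcd1lg2 was sparse, with 153 WT and 236 KO UMIs in all cells. Its highest level lay in mature dendritic cell-like cells, at 81.2 CPM (95% interval 43.3 to 139) on 13 WT UMIs against 42.3 CPM (27.9 to 61.5) on 27 KO UMIs. Neutrophil-like cells had 40.1 CPM in WT, from 9 UMIs, and 25 UMIs in KO. In WT, NK cell-like cells lay between them at 53.1 CPM from 8 UMIs. In the 4 macrophage, monocyte and conventional dendritic cell classes it ranged from 4.20 to 12.5 CPM, near the 6.65 and 5.55 CPM of T cell-like cells. Both PD-1 ligands were detected in the same thinned cell in 7 of 236 KO and 1 of 55 WT neutrophil-like cells.

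Among the CD28 ligands, Cd80 (ENSMUSG00000075122, chr16:38455561-38496335, plus strand) and Cd86 (ENSMUSG00000022901, chr16:36603869-36666081, minus strand) had different leading cells. Cd80 was highest in the Serpinb2 Ccr3 cluster, at 367 CPM (64 UMIs) for WT and 659 CPM (300 UMIs) for KO. There 21.8% of WT and 44.5% of KO cells had a UMI, although their depth was the lowest of the described groups. Neutrophil-like cells had 183 and 161 CPM, cDC2-like cells 86.2 and 197 CPM, and T cell-like cells 8.87 and 5.55 CPM. Cd86 in that same cluster was at 22.9 and 28.6 CPM. By the mean of both libraries it was highest in the Plet1 Tbc1d4 cluster, at 279 and 258 CPM, followed by B cell-like cells (179 and 239 CPM) and cDC2-like cells (172 and 219 CPM), which overlapped. In KO, mature dendritic cell-like cells were above it at 268 CPM, and in WT, inflammatory monocyte-like cells came second at 195 CPM. Resident macrophage-like cells had 129 and 203 CPM of Cd86. Cd80 and Cd86 were found in the same thinned cell in 43 of 353 KO cDC2-like cells and in 2 of 106 WT ones.

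Cd40 (ENSMUSG00000017652, chr2:165055627-165072948, plus strand) was set apart by mature dendritic cell-like cells, at 519 CPM (WT) and 604 CPM (KO). The intermediate cluster had 202 and 460.2 CPM, of which 73.8% of the KO UMIs came from 5 cells, and resident macrophage-like cells 173 and 188 CPM. Cd83 (ENSMUSG00000015396, chr13:43784775-43803132, plus strand) had no single leading group, with cDC2-like cells at 877 and 1029 CPM, mature dendritic cell-like cells at 944 and 883 CPM and the Plet1 Tbc1d4 cluster at 685 and 997 CPM. Their ranges overlapped. A Cd83 UMI was found in 95.6% of WT and 98.9% of KO cDC2-like cells. Neutrophil-like cells, high in Cd274, had 93.5 and 71.9 CPM of Cd83.

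Mature dendritic cell-like cells were set against all other cells of the same library. Cd40 was 6.88-fold higher in WT and 5.18-fold higher in KO, Cd274 2.62-fold and 2.60-fold, and Pdcd1lg2 10.9-fold and 4.39-fold. These 3 of the 8 genes were higher by 2-fold or more in both libraries, against 4.57% of 11725 genes. Cd83 was 2.79-fold higher in WT and 1.23-fold in KO. Havcr2 went the other way, at 0.517-fold and 0.203-fold, from 4 and 11 UMIs.

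Icosl (ENSMUSG00000000732, chr10:78069302-78083913, plus strand) was the member that ranked high outside immune cells. Stromal cell-like cells, led by Dcn and Col3a1, had 89.6 CPM (39 UMIs) in WT and 80.0 CPM (17 UMIs) in KO. Mature dendritic cell-like cells had 106 and 73.6 CPM and overlapped with them, while cDC2-like (63.7 and 71.3 CPM) and cDC1-like cells (56.6 and 53.5 CPM) lay below. T cell-like cells were lowest in WT at 2.96 CPM, and epithelial-like cells were at 5.68 CPM in WT with no UMI in KO, where 3 counts, the limit set here for a count of 0, would be 21.9 CPM and the Poisson interval ends at 26.9 CPM. A UMI was present in 28 of 80 WT stromal cell-like cells, against 1.78% of WT T cell-like cells at like median depths of 5302 and 4950.0 UMIs.

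Havcr2 (ENSMUSG00000020399, chr11:46454935-46481255, plus strand) was highest in the Plet1 Tbc1d4 cluster, at 214 CPM (WT) and 183 CPM (KO), and next in cDC1-like cells, at 136 and 117 CPM. In a coarser clustering (Leiden resolution 0.5) the cluster highest in Plet1 had 137 and 122 CPM. cDC2-like cells, at 62.8 and 93.3 CPM, and resident macrophage-like cells, at 80.4 and 53.6 CPM, overlapped. T cell-like cells, on which the receptor is best known, had 8.13 and 1.85 CPM, from 11 and 1 UMIs.

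Several of the genes could be found in the same cell. After thinning, UMIs of 2 or more of the 8 genes were found in 81.2% of WT and 85.0% of KO mature dendritic cell-like cells, in 71.0% and 82.3% of the Plet1 Tbc1d4 cluster, and in 57.5% (95% interval 47.6 to 67.1%) and 74.2% (69.3 to 78.7%) of cDC2-like cells. Resident macrophage-like cells had 44.1% (35.9 to 52.6%) and 60.6% (54.2 to 66.6%). The intervals of the libraries did not overlap in these last 2 classes. They cover counting error over cells only, so this is not a test between genotypes, and genotype and library cannot be told apart. The resident macrophage-like class also held a different mixture of clusters in each library, and the part of this in its shares was not tested. No share for other gene sets is given for comparison. T cell-like cells had 2.26% and 4.65%, and cDC1-like cells 38.3% and 40.7%.

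**Figure D2:**
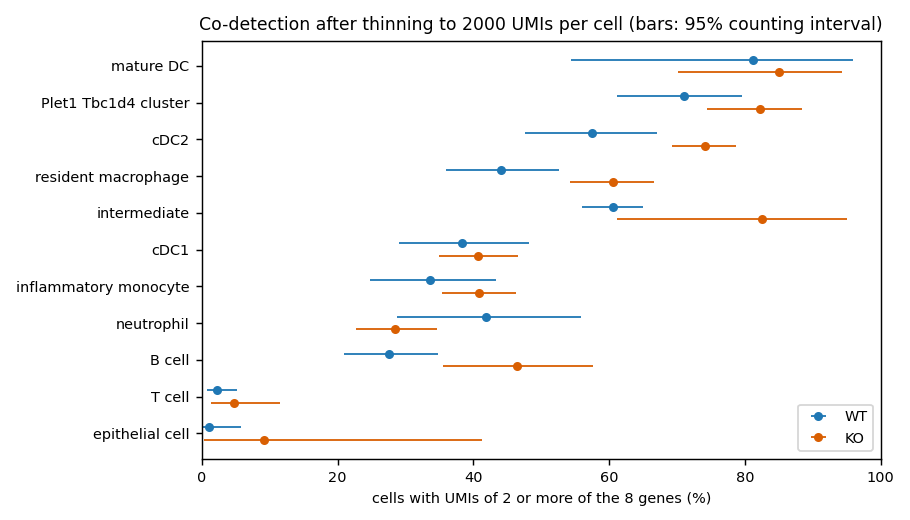
Share of cells with UMIs of 2 or more of the 8 genes after thinning to 2000 UMIs per cell, by group, with WT in blue, KO in orange and exact 95% counting intervals as bars. Mature dendritic cell-like cells lie above 80% in both libraries and T cell-like cells below 5%.

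The KO library was then compared with WT within each class. In cDC2-like cells, led by Cd209a and Mgl2, Cd80 was at 86.2 CPM (92 UMIs) for WT and 197 CPM (984 UMIs) for KO, with a log2 ratio of 1.19 (0.88 to 1.51). Pdcd1lg2 also passed 2-fold there, at 1.04, but its interval of -0.17 to 2.55 included 0 and it rested on 6 and 58 UMIs. It kept its direction in 6 of 10 other settings of the clustering, filter or scaling. The other 6 genes were between 0.16 and 0.57, and the interval of Icosl among them included 0. Of these, Havcr2 (0.57) kept its direction in 6 of 11 other settings, Cd274 (0.38) in 7 and Cd86 (0.36) in 9, while Cd40, Cd83 and Icosl did so in 11 of 11. Thus 2 of 8 genes were higher and 0 lower, against 6.42% and 8.09% of 8718 genes, and the median of the 8 was 0.47 against -0.16 for all genes. The share of cDC2-like cells with a Cd80 UMI was 40.4% in WT and 82.1% in KO, and 8.49% (3.96 to 15.5%) and 29.2% (24.5 to 34.2%) after thinning. Summed over their marker lists, 9 neutrophil markers were at 31.9 and 131 CPM in these cells, 9 eosinophil markers at 88.1 and 133 CPM, 10 mature dendritic cell markers at 652 and 1096 CPM, 8 plasma cell markers at 922 and 193 CPM and 11 inflammatory monocyte markers at 2542 and 773 CPM, and their part in the Cd80 difference was not tested.

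In cDC1-like cells, led by Xcr1 and Clec9a, 0 of 8 genes passed 2-fold in either direction, against 4.44% higher and 3.59% lower of 9574 genes. Cd80 came nearest, at 43.5 CPM (WT) and 82.0 CPM (KO), with a log2 ratio of 0.91 (0.52 to 1.33). Cd274 differed between the 2 clusters of the class. In the Xcr1 Clec9a cluster it was at 66.1 and 51.8 CPM, with a log2 ratio of -0.35 (-0.80 to 0.11). In the other, led by Pclaf, Top2a and histone genes, it was at 16.4 CPM (8 UMIs, 24 cells) and 93.5 CPM (230 UMIs, 98 cells), its log2 ratio being 2.51 with an interval above 0. Havcr2 and Icosl, of which these cells held much, were at -0.21 and -0.08 with intervals that included 0. Inflammatory monocyte markers summed to 1672 and 792 CPM in the class, neutrophil markers to 17.4 and 181 CPM and plasma cell markers to 723 and 138 CPM, and their part was not tested.

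In resident macrophage-like cells 0 of 8 genes passed 2-fold, against 5.32% higher and 11.2% lower of 8723 genes. Their median was 0.28 against -0.23 for all genes. Cd80 was at 42.3 CPM (WT) and 75.0 CPM (KO), with a log2 ratio of 0.83 (0.38 to 1.30), but at 44.7 and 44.3 CPM within the C1qc cluster, with a log2 ratio of -0.01 (-0.64 to 0.62). Within the Retnla Ccl24 cluster Cd80 was at 25.8 CPM from 4 UMIs in WT and 90.7 CPM in KO, with a log2 ratio of 1.81 (0.43 to 3.70). That cluster held 19 WT and 161 KO cells, and the part of its level or its share in the class difference was not tested. Cd86 was higher in KO in the class, at 0.65 (0.39 to 0.92), and within the C1qc cluster, from 126 to 227 CPM, at 0.85 (0.54 to 1.18). Cd83 was at 0.33 in the class, 0.70 (0.54 to 0.86) within that cluster and -0.26 (-0.54 to 0.03) within the Retnla Ccl24 cluster. Cd274 was at 0.43 and 0.39, and Cd40 at 0.12 and 0.07. Havcr2 was lower in KO in the class, at -0.59 (-0.96 to -0.20), but at -0.48 (-0.98 to 0.00) within the C1qc cluster and 0.35 (-0.83 to 1.83) within the other. Resident macrophage markers summed to 19743 and 11396 CPM in the class, inflammatory monocyte markers to 1316 and 2196 CPM, cDC2 markers to 781 and 1219 CPM and plasma cell markers to 1368 and 262 CPM, and their part was not tested.

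**Figure D3:**
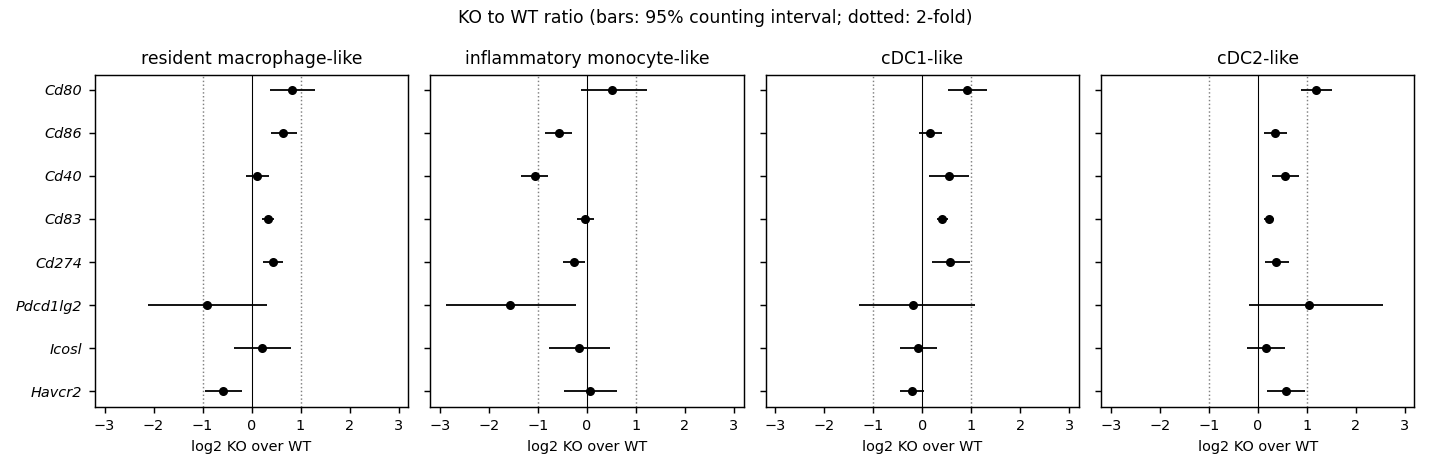
Log2 ratio of KO over WT CPM of each gene in 4 classes, with exact 95% counting intervals as bars and dotted lines at 2-fold. Cd80 in cDC2-like cells lies at 1.19 and Cd40 in inflammatory monocyte-like cells at -1.06.

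In inflammatory monocyte-like cells the direction of Cd40 was the opposite. It was at 215 CPM (172 UMIs) for WT and 103 CPM (318 UMIs) for KO, with a log2 ratio of -1.06 (-1.34 to -0.79). Pdcd1lg2 was at -1.57 (-2.88 to -0.22) from 10 and 13 UMIs, and kept its direction in 10 of 12 other settings. These were the 2 lower genes of 8, with 0 higher, against 11.3% lower and 5.44% higher of 8013 genes, and the median of the 8 was -0.22 against -0.20 for all genes. Cd86 was at -0.58 and Cd274 at -0.27 with intervals below 0. Mature dendritic cell markers summed to 554 and 193 CPM in the class, neutrophil markers to 244 and 1482 CPM and plasma cell markers to 968 and 281 CPM, and their part was not tested. Within clusters, Cd40 was at 95.1 and 91.5 CPM in the Chil3 Ace cluster, which holds 270 of the 354 KO cells, with a log2 ratio of -0.06 (-0.68 to 0.63). Cd86 was at -0.56 (-1.02 to -0.08) and Cd274 at 0.11 (-0.32 to 0.57) there, and Pdcd1lg2 had only 1 and 10 UMIs. In the F13a1 Chil3 cluster, of 36 WT and 36 KO cells, Cd40 rested on 9 UMIs in each library, with a log2 ratio of -0.62 (-2.13 to 0.88).

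**Figure D4:**
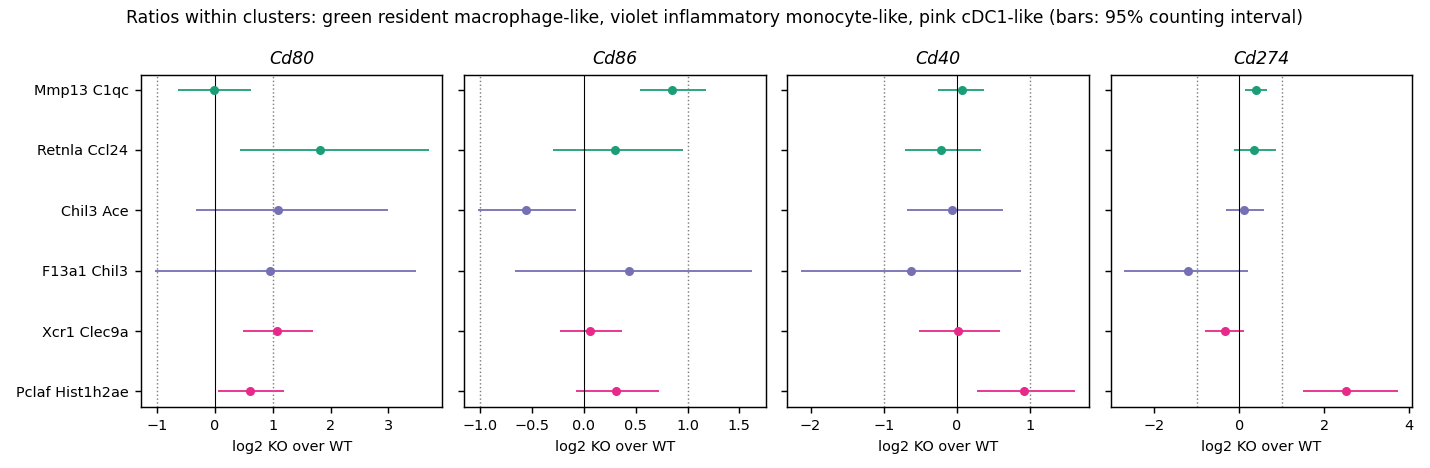
Log2 ratio of KO over WT CPM of Cd80, Cd86, Cd40 and Cd274 within 6 single clusters of the resident macrophage-like (green), inflammatory monocyte-like (violet) and cDC1-like (pink) classes, with exact 95% counting intervals as bars and dotted lines at 2-fold. Cd274 in the cDC1-like Pclaf Hist1h2ae cluster lies at 2.51, and Cd80 in the C1qc cluster at -0.01.

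In the Plet1 Tbc1d4 cluster Cd40 was at 66.9 CPM (WT) and 137 CPM (KO), with a log2 ratio of 1.04 (0.67 to 1.41), and Cd80 at 99.9 and 170.1 CPM, with a log2 ratio of 0.77. Cd86 and Havcr2 were at -0.11 and -0.23. This made 1 gene of 8 higher and 0 lower, against 4.02% and 12.5% of 7705 genes. Plasma cell markers summed to 779 and 104 CPM in this cluster and resident macrophage markers to 221 and 36.6 CPM, and their part was not tested. In the Serpinb2 Ccr3 cluster 3 of the 8 genes had 20 UMIs. Cd80 was at 0.84 (0.45 to 1.26) and Cd274 at 0.15, and Cd83 was lower, at -1.55 (-2.62 to -0.50) from 18 and 16 UMIs, against 8.81% higher and 5.65% lower of 3826 genes. Its plasma cell markers summed to 4432 and 189 CPM and its inflammatory monocyte markers to 2913 and 5712 CPM, and their part was not tested either.

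In neutrophil-like cells, led by S100a9 and S100a8, Cd274 fell short of 2-fold, at -0.56 (-0.78 to -0.34). All 7 members with 20 UMIs had log2 ratios below 0, with a median of -0.56 against -0.22 for all genes, and the intervals of those other than Cd274 included 0. Havcr2, at -1.01 from 13 and 24 UMIs, was the 1 gene called lower, against 16.2% lower and 6.03% higher of 3930 genes. Neutrophil markers summed to 43979 and 83561 CPM in these cells, resident macrophage markers to 1136 and 310.5 CPM and plasma cell markers to 1822 and 113 CPM, and their part in the ratios was not tested.

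Lymphoid cells held fewer members with 20 UMIs. In B cell-like cells, 5 did. Cd83 was at 486 and 787 CPM, with a log2 ratio of 0.70 (0.48 to 0.91), Cd86 at 0.41 and Cd274 at 0.69, while Icosl was called lower at -1.05 (-2.28 to 0.03) from 38 and 9 UMIs, against 11.2% lower and 2.61% higher of 5852 genes. Neutrophil markers summed to 997 and 25.4 CPM in these cells and plasma cell markers to 1788 and 284 CPM, and their part was not tested. In T cell-like cells, 3 did. Cd83 was called higher, from 31.8 to 107 CPM at 1.75 (1.16 to 2.36), against 4.24% higher and 16.9% lower of 7195 genes. Of its UMIs, 60.5% in WT and 58.6% in KO came from 5 cells of the library.

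Mature dendritic cell-like cells, with 19 in WT, were too few for the count of genes past 2-fold. Their Cd80 was at 75.0 CPM (12 UMIs) against 191 CPM (122 UMIs), with a log2 ratio of 1.35 (0.49 to 2.34), and their Cd86 at 106 CPM (17 UMIs) against 268 CPM (171 UMIs), with a log2 ratio of 1.33 (0.61 to 2.15). After thinning, however, the share with a Cd86 UMI was 37.5% in WT (16 cells, interval 15.2 to 64.6%) against 25.0% in KO (40 cells, 12.7 to 41.2%), with overlapping intervals. The CPM difference of Cd86 was thus not seen in its thinned share, whereas its share before thinning was 57.9% in WT and 73.2% in KO. For Cd80 the thinned share was 6.25% in WT (0.158 to 30.2%) and 32.5% in KO (18.6 to 49.1%), also with overlapping intervals. Of the WT UMIs of Cd80, 91.7% came from 5 cells. Cd40, which set mature dendritic cell-like cells apart, was at 0.22 with an interval that included 0. In these cells cDC1 markers summed to 881 and 289.7 CPM and plasma cell markers to 962 and 116 CPM, and their part was not tested.

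A list of costimulatory and inhibitory receptors, only some of which bind the ligands above, was read in T cell-like cells. There 11 of 13 had 20 UMIs, 2 were higher and 3 lower in KO, in a class where 4.24% of all genes were higher and 16.9% lower. Pdcd1, the PD-1 receptor, was at 7.39 and 25.9 CPM, with a log2 ratio of 1.81 from 10 and 14 UMIs, and Cd27 at 1.09. Ctla4 was at 849 and 384 CPM, with a log2 ratio of -1.14 (-1.36 to -0.93), Cd226 at -1.05, and Lag3, an inhibitory receptor for MHC class II, at 143 and 7.39 CPM, with a log2 ratio of -4.27 from 193 and 4 UMIs. Cd28 (413 and 621 CPM) was at 0.59 and Icos at 0.06. The clusters of this class were filled differently, since 143 of 225 WT but 33 of 88 KO cells lay in a Gzma Gzmb cluster. NK cell markers summed to 12026 and 311 CPM in the class and plasma cell markers to 5429 and 140.5 CPM, and the part of these shifts in the ratios was not tested.

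Of 18 further ligands on antigen-presenting cells, 12 had 20 UMIs in resident macrophage-like cells, 3 were higher and 2 lower, against 5.32% and 11.2% of all genes. Tnfsf14 (LIGHT) was at 5.81 and 25.9 CPM, with a log2 ratio of 2.16, Pvr (a ligand of CD226 and TIGIT) at 1.66 and Tnfsf9 (4-1BB ligand) at 125 and 364 CPM, with a log2 ratio of 1.54. Nectin2 was at -1.47 and Lgals9, a ligand of TIM-3, at 170.0 and 83.4 CPM, with a log2 ratio of -1.03. In inflammatory monocyte-like cells, 10 of them passed the UMI minimum, 1 was higher and 2 lower (5.44% and 11.3% of all genes), with Ceacam1 at the top (1.75, from 38 and 494 UMIs) and Timd4 at the bottom (-2.51, from 25 and 17 UMIs). In cDC1-like cells it was 13, with 2 higher and 2 lower (4.44% and 3.59% of all genes), from Tnfsf4 (OX40 ligand, 1.65, with an interval of -0.37 to 4.78 from 2 and 23 UMIs) to Lgals9 (-1.54). In cDC2-like cells it was 11, with 1 higher and 0 lower (6.42% and 8.09%), from Tnfsf4 (1.09, with an interval of -0.38 to 3.04 from 4 and 40 UMIs) to Lgals9 (-0.95). In the Plet1 Tbc1d4 cluster it was 11, with 1 higher and 2 lower (4.02% and 12.5%). There Tnfsf4 had 1 UMI in WT and 65 in KO, at 5.08 on the log2 scale (2.55 to 10.41), and Vsir was at -1.90. In neutrophil-like cells Tnfsf14 was at 1.24 and Icam1, the ligand of LFA-1, at 1742 and 803 CPM, with a log2 ratio of -1.12 (-1.30 to -0.93). In B cell-like cells 7 ligands passed the UMI minimum, with 0 higher and 4 lower (2.61% and 11.2% of all genes). Their median was -1.33, from Cd48 (0.12) to Tnfsf9 (-2.19, from 28 and 3 UMIs). The class ratios of these ligands compare different mixtures of clusters. The Retnla Ccl24 cluster gave 19 of 188 WT and 161 of 283 KO resident macrophage-like cells. The Chil3 Ace cluster gave 36 of 113 WT and 270 of 354 KO inflammatory monocyte-like cells. The part of this and of the marker shifts given above was not tested.

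The genes with the most similar patterns were sought over 31 points from 16 groups and both libraries, among 9485 genes, by Pearson's r of log2(CPM + 10). Points of 1 library share its depth, so r is a description without a p-value. Cd86 was most like Cd74, H2-Aa and Cd83 (each 0.94), and Cd83 most like H2-Eb1 and H2-Ab1 (0.96) and Cd74 (0.95), which all belong to the MHC class II pathway apart from Cd83 itself. Cd40 was nearest to Grk3 and Arl5c (0.90) and Cxcl16 (0.89). Cd80 was nearest to Adam8 (0.92), Basp1 and Smim3 (0.90), and its r with Cd86 was only 0.46. Havcr2 was nearest to Cfp (0.92), Gm2a (0.90) and Rtn1 (0.86), and Cd274 to Dusp16 and Marcksl1 (0.82) and Gla (0.81). Pdcd1lg2 was nearest to Emd (0.74), Stat4 (0.70) and Nfkb2 (0.69), and its r with its neighbour Cd274 was 0.56. Icosl was nearest to Fmnl2 (0.81), Arf2 (0.76) and Acvrl1 (0.75).

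Some cells carried transcripts of the interferon Ifnb1. Groups of a library were split by it only where enough cells were present with and without an Ifnb1 UMI. No WT group met this, so WT is not described here. Cells with an Ifnb1 UMI were deeper. Their median was 9957 against 8556 UMIs in KO resident macrophage-like cells and 16415 against 13502 UMIs in KO cDC2-like cells. In KO resident macrophage-like cells, Cd274 was at 376 CPM (332 to 423) in the 67 cells with an Ifnb1 UMI and at 273 CPM (252 to 297) in the 216 without. In KO cDC2-like cells the order was the opposite, at 143 CPM (114 to 176) in 38 cells with and 211 CPM (198 to 225) in 320 without. Havcr2 (59.7 against 97.9 CPM) and Pdcd1lg2 (0 against 13.2 CPM) were also lower in those with an Ifnb1 UMI, with intervals apart. For the other genes in both classes the intervals overlapped.

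The division of macrophages and dendritic cells into classes moved with the clustering, so each ratio was recomputed under other settings, of which 10 to 13 gave a value for a given gene and class. Cd80 in cDC2-like cells stayed higher in KO in 11 of 11 settings that gave a value, from 0.88 to 1.45, and in cDC1-like cells in 11 of 11, from 0.56 to 1.57. Cd86 in resident macrophage-like cells stayed higher in 13 of 13, from 0.40 to 0.88. Cd40 in inflammatory monocyte-like cells stayed lower in 12 of 12, from -1.16 to -0.57, and Cd274 in neutrophil-like cells in 11 of 11, from -0.95 to -0.35. Cd274 in cDC1-like cells ranged from -0.26 to 2.51.

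**Figure D5:**
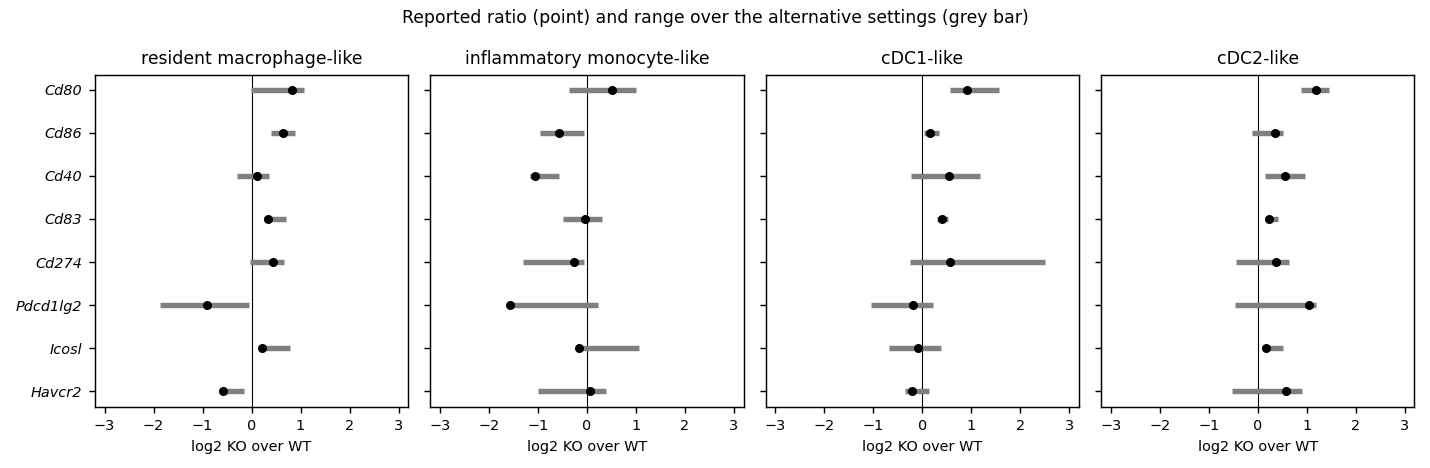
Log2 ratio of KO over WT CPM of each gene in 4 classes as reported (point) and its lowest and highest value over the alternative settings (grey bar). The bar of Cd80 in cDC2-like cells, 0.88 to 1.45, stays above 0, and that of Cd274 in cDC1-like cells reaches from -0.26 to 2.51.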

How the data were processed

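Libraries were made with 10x Genomics 3' chemistry. What was deposited are unnormalised UMI counts by barcode, which the authors obtained with Cell Ranger 3.0.2 per the file headers; the submitters' processing notes name mm10 and Seurat 4. The study's legend gives a WT cell number several times the barcodes in the files. Barcodes with fewer than 200 or more than 6000 genes, or over 15% mitochondrial UMIs, were removed as in the study. Its DESC clustering was replaced by log-normalisation, 2000 variable genes without the members, 30 principal components, 15 neighbours and Leiden at resolution 1 (scanpy 1.11.5, leidenalg 0.10.2). Clusters were named by the class of which most markers, and at least 3, were raised 2-fold. Those whose leading genes held more markers of another class stayed unnamed. No doublet caller was applied in the main analysis. CPM, shares (Clopper-Pearson) and ratios carry 95% intervals, which cover counting error. Only the ratio intervals were tried on simulated counts. These were drawn from the Poisson model that the intervals assume, so their coverage there was given in advance. UMIs gathered in a few cells were not simulated. Named were all 8 members, receptors in T cell-like cells, the pathway genes with the highest and lowest ratio of a class, and the 3 genes most like each member. Members and lists were chosen with earlier results of these data known. Alternatives changed the clustering, cell filter, naming, scaling and UMI minimum (50). Of these, 4 were added after seeing the data. Positions are from GENCODE M21. The values of 1 monocyte-like cluster are not reported here.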

Additional observations from a re-analysis of the deposited data

Results flagged for a closer look

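For 5 of the 8 genes the KO to WT ratio had opposite directions in different groups, with both counting intervals away from 0. For each gene the highest and the lowest such group were picked. The share of all genes that would meet this was not computed, so the count is not a trait of these genes. Cd40 was at 1.04 in the Plet1 Tbc1d4 cluster and at -1.06 in inflammatory monocyte-like cells, a difference of 2.10 on the log2 scale. Within clusters of the latter class, however, Cd40 was at -0.06 (-0.68 to 0.63) in the Chil3 Ace cluster, with 36 WT and 270 KO cells. It was at -0.62 (-2.13 to 0.88) in the F13a1 Chil3 cluster. Cd83 was at 1.75 in T cell-like cells and at -1.55 in the Serpinb2 Ccr3 cluster, a difference of 3.30, from 101 and 34 UMIs in all. Cd86 was at 0.65 in resident macrophage-like and at -0.58 in inflammatory monocyte-like cells, a difference of 1.23. Cd274 was at 0.69 in B cell-like and at -0.56 in neutrophil-like cells, a difference of 1.25. Havcr2 was at 0.57 in cDC2-like and at -0.59 in resident macrophage-like cells, a difference of 1.16, but the former kept its direction in only 6 of 11 other settings (-0.52 to 0.91), against 13 of 13 for the latter. Within the clusters of the latter class Havcr2 was at -0.48 (-0.98 to 0.00) in the C1qc cluster and 0.35 (-0.83 to 1.83) in the Retnla Ccl24 cluster. With 1 library per genotype these differences were not tested.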

How the results depend on the processing

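No paired analysis was possible because each genotype has 1 library. The count of members past 2-fold in a class changed with the settings, also with some that left the clusters as they were. In inflammatory monocyte-like cells the 2 lower genes became 0 at Leiden resolutions 0.5 and 2, with the stricter filter, by highest marker score, without the top 3% of Scrublet scores, with the intermediate cluster added and with clustering seed 1, and 1 with 4000 variable genes, relative to the median of all genes, without the 5 cells highest for a gene and at 50 UMIs. With 4000 variable genes 2 were higher there. In cDC2-like cells the 2 higher genes became 1 at both resolutions, with the stricter filter, with libraries clustered alone, without the top Scrublet scores and without the 5 cells, and 0 with 4000 variable genes, by marker score and with seed 1. In cDC1-like cells 1 gene was higher at both resolutions, with 4000 variable genes, with the stricter filter, with libraries clustered alone, relative to the median and without the 5 cells, and 1 was lower by marker score. In resident macrophage-like cells 1 was higher relative to the median. The cause was not tested. Pdcd1lg2 changed direction in monocyte-like cells at resolution 2 (0.23) and with the stricter filter (0.10), and in cDC2-like cells at resolution 0.5 (-0.34), with 4000 variable genes (-0.18), with libraries clustered alone (-0.47) and with seed 1 (-0.46). Havcr2 in neutrophil-like cells did so with libraries clustered alone (0.23). In cDC2-like cells Havcr2 and Cd274, not past 2-fold, kept their direction in 6 and 7 of 11 settings. Of 539 recomputed ratios, 413 lay within the counting interval of the reported value and 466 kept its sign. Among named classes, 4 members had the same leading class in both libraries, and 3 or 4 in each of 12 alternatives for which this was recomputed. With the stricter filter and with libraries clustered alone Cd274 in KO was led by mature dendritic cell-like cells, by marker score Pdcd1lg2 in KO by neutrophil-like cells, and at resolution 0.5 and with seed 1 Havcr2 by cDC2-like cells. Cd80 in the cluster highest in Ccr3 was at 340.3 to 471 CPM in WT and 653 to 669.6 CPM in KO over 5 clusterings, whereas the cluster highest in Plet1 held 330 WT and 690 KO cells at resolution 0.5, 35 and 4 with 4000 variable genes and 148 and 304 with seed 1, against 101 and 124 as reported and 99 and 123 at resolution 2. Its Cd86 was at 206 and 209, 215 and 128, and 263 and 233 CPM in these 3, against 279 and 258 CPM as reported there and 179 and 239 CPM in B cell-like cells, and its Cd83 in WT ranged from 351 to 770.3 CPM. Its Havcr2 was at 137 and 122, 210.4 and 284, and 190.0 and 152 CPM in the same 3. The reported values were 214 and 183 CPM there and 136 and 117 CPM in cDC1-like cells. Pdcd1lg2, with 153 WT and 236 KO UMIs, is limited by depth.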
